A study of Rattus norvegicus with 15 samples.

Results

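Long-chain fatty acid oxidation in the multifidus, the deep muscle along the lumbar spine, was followed through 10 of the 37991 genes in the deposited table, chosen by symbol for their place in fatty acid uptake and β-oxidation: Cd36, Cpt1b, Cpt2, Acadvl, Acadl, Acadm, Hadha, Hadhb, Pdk4 and Ucp3. Bulk RNA-seq covered 15 libraries of multifidus from wild type male Sprague Dawley rats, aged 12 weeks and weighing 340 to 370 g. The Control group (2 libraries) was uninjured, and the other groups all underwent the same operation, a hemilaminectomy with ligation of the left L5 spinal nerve. After it, the Surgery group (2 libraries) received nothing, the pMT group (4 libraries) received mitochondria isolated from human plasma, the VitD group (3 libraries) received cholecalciferol, and the pMT/VitD group (4 libraries) received both. Each treated rat was injected at 2 sites, with 25 µg of mitochondria in 100 µL, 150 µg of cholecalciferol or both per site, so that a rat received 50 µg of pMT, 300 µg of VitD or both. The pMT injection fell on day 14 after the operation, tissue of Control, Surgery and pMT rats was taken on day 28 of that schedule, and the days for the groups with VitD are not given in the sources used here. No group was injected with buffer alone, so injection and what was injected cannot be told apart in comparisons with Surgery or Control. In comparisons among pMT, VitD and pMT/VitD, both groups were injected.

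Muscle takes up long-chain fatty acids with the help of the membrane protein CD36, couples them to carnitine with CPT1B, carries them into the mitochondrion and frees them there with CPT2. Acyl-CoA dehydrogenases of graded chain-length preference (ACADVL, ACADL, ACADM) open each round of β-oxidation, and the trifunctional protein, built from HADHA and HADHB, completes it for long chains. PDK4 switches fuel use towards fat by phosphorylating pyruvate dehydrogenase, and UCP3 is an inner-membrane carrier of skeletal muscle whose transcript is known to follow fatty acid supply.

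Levels are given as CPM (counts divided by the TMM-scaled total count of a library and expressed per 1e6), to compare libraries, and as deposited TPM (abundance per transcript length, which sums to 1e6 in each library), to compare genes. A gene was called where edgeR's quasi-likelihood test with Benjamini-Hochberg adjustment over 17201 genes gave an adjusted p below 0.05. Total counts ran from 52342134 to 73557878 per library, and the 10 genes held 2368 to 25595 counts each, so all 10 passed the filter on low counts, together with 17201 genes in all. Mitochondrially encoded genes took 10.7% to 22.6% of counts, highest in pMT replicate 4, and all 8 markers of skeletal muscle fibres were detected in every library. Over 3129 abundant genes, the replicate 4 libraries of the pMT and pMT/VitD groups each resembled the opposite group more than their own. Whether the 2 libraries were exchanged was not tested, and both were kept in the groups their labels give. For pMT replicate 4, the SD of log2 ratios was 0.365 to 0.550 within its own group and 0.178 to 0.314 against pMT/VitD replicates 1 to 3. For pMT/VitD replicate 4, it was 0.371 to 0.479 within its own group, 0.194 to 0.253 against pMT replicates 1 to 3 and 0.166 to 0.201 against Control. For pMT/VitD replicate 3, it was likewise lower against Control (0.232 to 0.274) than against pMT/VitD replicates 1 and 2 (0.301 to 0.342). VitD replicate 1 stood 0.398 to 0.528 from the other VitD libraries, and the 2 Surgery libraries were much alike (0.0636), although they differed by more than counting noise and were kept as 2 samples. VitD replicate 2 was nearer the Surgery libraries (0.0821 to 0.107) than the other VitD libraries (0.153 to 0.398). The labels do not say whether libraries of a group came from different rats, so each p measures the spread between these samples.

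Per length, Pdk4 was the highest of the 10 genes, with 253 ± 86.8 TPM (SD, n = 15 libraries), followed by Hadhb (175 ± 27.3 TPM), Acadl (168 ± 19.8 TPM), Acadm (155 ± 19.7 TPM) and Ucp3 (135 ± 31.5 TPM). The lower levels belonged to Hadha (96.9 ± 12.4 TPM), Acadvl (96.3 ± 12.6 TPM), Cpt1b (87.0 ± 17.1 TPM), Cd36 (59.2 ± 13.96 TPM) and Cpt2 (31.1 ± 5.28 TPM). The last 2 places were the same in all 15 libraries, whereas Hadhb exceeded Acadl in 9 of 15 and Hadha exceeded Acadvl in 6 of 15, so these neighbours did not differ beyond the spread between libraries. Hadhb TPM was 1.67 to 1.97 times Hadha TPM in every library.

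The genes also differed in how steady they were. Within groups, the SD of log2 CPM was 0.071 for Cpt2 and 0.072 for Hadha, against 0.44 for Pdk4 and 0.40 for Ucp3, which placed the latter pair at the 96.3rd and 94.7th percentile of the 2059 genes with a mean of at least 50 CPM. From the lowest to the highest library, CPM spanned 1.27-fold for Acadvl, 2.45-fold for Pdk4 and 3.88-fold for Ucp3. VitD replicate 1 was the lowest of the 15 libraries for 7 of the 10 genes (Cpt1b, Cpt2, Acadm, Hadha, Hadhb, Pdk4 and Ucp3).

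**Figure D1:**
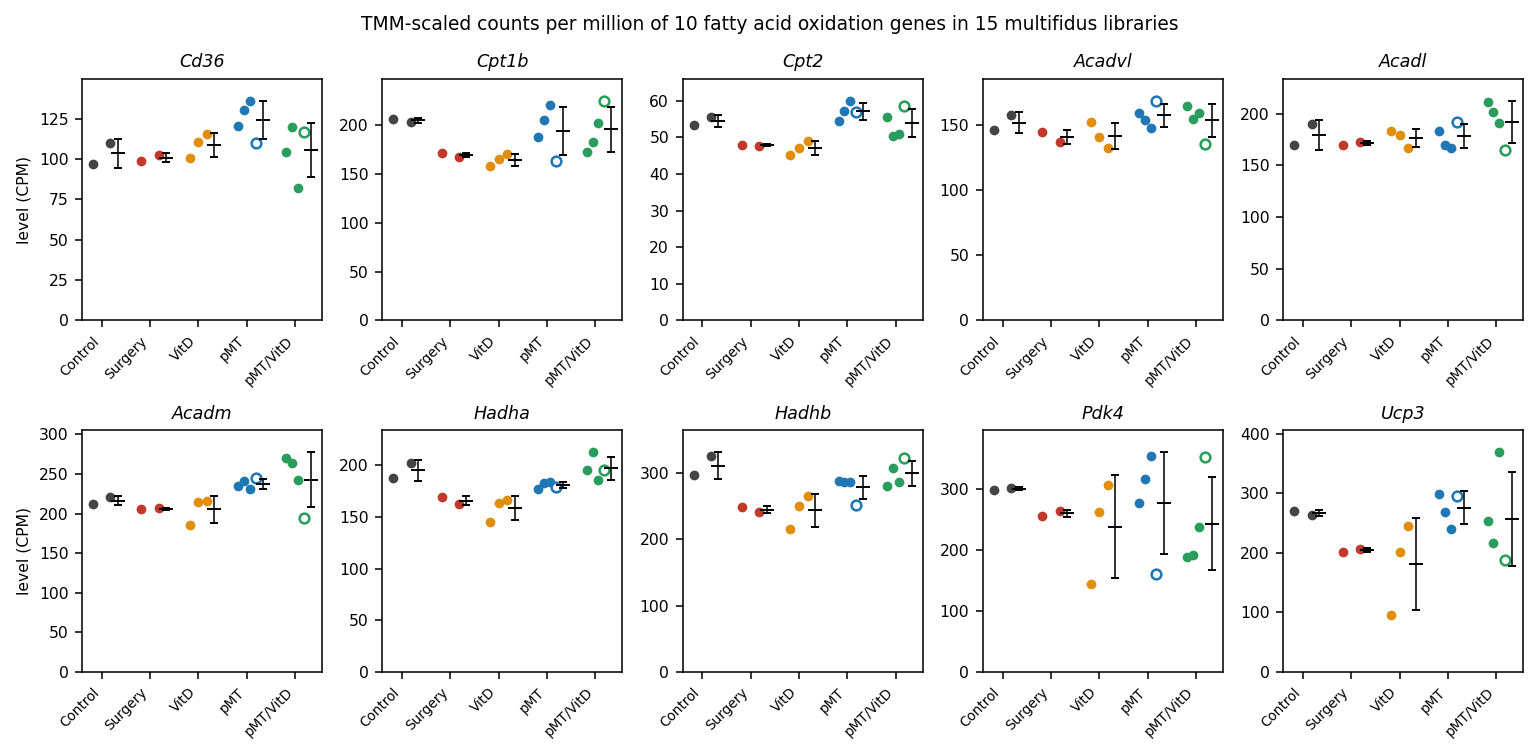
Level of each gene (y axis, TMM-scaled CPM, from 0) in the 15 libraries by group (x axis). Filled points are libraries, open points are replicate 4 of pMT and of pMT/VitD, and bars are the group mean ± SD. Hadha and Hadhb are lower in every Surgery and VitD library than in either Control library, and Pdk4 and Ucp3 spread widely within VitD and pMT/VitD.

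Uptake was represented by Cd36, the fatty acid translocase of the plasma membrane. It stood at 97.1 and 110.0 CPM in the Control libraries, 99.1 and 103 in Surgery, 101, 110.4 and 115 in VitD, 120.3, 131, 136 and 110.1 in pMT and 104, 119.6, 82.2 and 117 in pMT/VitD. All 4 pMT libraries lay above the Control and Surgery libraries, replicate 4 only just, while pMT/VitD replicate 3 was the lowest library of the series.

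The carnitine shuttle was represented by both of its acyltransferases. Cpt1b, the muscle isoform of the outer-membrane enzyme, stood at 207 and 203 CPM in the Control libraries, 171 and 168 in Surgery, 158, 165 and 170.1 in VitD, 188, 205, 221 and 164 in pMT and 172, 183, 202 and 225 in pMT/VitD. Every Surgery and VitD library was below both Control libraries, and the pMT and pMT/VitD libraries ranged from the Surgery level to above Control. Cpt2, the inner-membrane enzyme, had 54.5 ± 1.57 CPM in Control (SD, n = 2), 47.8 ± 0.202 in Surgery (n = 2), 47.1 ± 1.903 in VitD (n = 3), 57.1 ± 2.28 in pMT (n = 4) and 53.8 ± 3.87 in pMT/VitD (n = 4). Its Surgery libraries lay below all Control, pMT and pMT/VitD libraries and within the VitD range.

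The acyl-CoA dehydrogenases were represented by 3 genes. Acadvl, which starts on very long chains, ranged from 132 to 168 CPM over the 15 libraries, and group means ran from 140.4 ± 5.59 in Surgery (SD, n = 2) to 157 ± 8.65 in pMT (n = 4). Acadl, the long-chain enzyme, ranged from 164 to 211 CPM, with both ends inside the pMT/VitD group. Acadm, the medium-chain enzyme, stood at 212 and 221 CPM in the Control libraries, 205 and 207 in Surgery, 185, 215 and 216 in VitD, 234, 241, 231 and 245 in pMT and 271, 264, 242 and 195 in pMT/VitD. Its pMT libraries lay above all Control, Surgery and VitD libraries, and so did pMT/VitD replicates 1 to 3, whereas pMT/VitD replicate 4 lay below both Surgery libraries.

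The 250 bases upstream of the annotated start of Acadvl are shown because they held the only match among these genes to the direct repeat NGGNCA with 1 base between its 2 copies, of the kind bound by PPAR-RXR dimers (RefSeq, GRCr8, chr10:55236706-55236955, reverse strand, 5′ to 3′ along the gene). Capitals mark that match, AGGTCAGTGGTCA at 17 to 5 bases before the start, and the hexamer AGGTCA at 169 to 164 bases before it.
Acadvl: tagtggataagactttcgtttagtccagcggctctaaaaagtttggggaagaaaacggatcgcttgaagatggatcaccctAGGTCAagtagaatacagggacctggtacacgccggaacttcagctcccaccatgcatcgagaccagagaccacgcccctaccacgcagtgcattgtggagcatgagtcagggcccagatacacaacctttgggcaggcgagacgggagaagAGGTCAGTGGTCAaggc
Promoter windows of 300 bases, from 250 before to 50 after the start, were found for 8 of the 10 genes, not for Cpt1b and Acadl. Searching both strands, the direct repeat was in 1 of the 8 and in 1.87% of 33469 promoters, the hexamer AGGTCA, which overlaps it, was in 3 of the 8 (Acadvl, Hadhb and Ucp3) and in 16.2% of promoters, and TNAAGGTCA, a form bound by estrogen-related receptors, was in 0 of the 8 and in 1.2%. A match is a description of these letters and not a site shown to be bound.

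The trifunctional protein is made of the products of 2 genes. Hadha, its α subunit with the hydratase and long-chain 3-hydroxyacyl-CoA dehydrogenase activities, stood at 188 and 202 CPM in the Control libraries, 169 and 163 in Surgery, 145, 164 and 167 in VitD, 177, 183, 183 and 179 in pMT and 195, 213, 186 and 195 in pMT/VitD. The pMT/VitD libraries all lay above the pMT, Surgery and VitD libraries, and the Control libraries overlapped with pMT/VitD alone. Hadhb, its β subunit with the thiolase activity, stood at 297 and 326 CPM in the Control libraries, 249 and 241 in Surgery, 216, 250.2 and 265 in VitD, 289, 287, 287 and 252 in pMT and 281, 309, 287 and 323 in pMT/VitD. Both Surgery libraries and all 3 VitD libraries lay below both Control libraries, and every pMT and pMT/VitD library lay above both Surgery libraries. Of 45 pairs among the 10 genes, Hadha and Hadhb had the highest Pearson correlation of log2 CPM over the 15 libraries (r = 0.91, Spearman's rho = 0.84), which was 0.70 for deviations from the group means and 0.88 in the 13 libraries left without VitD replicate 1 and pMT/VitD replicate 2. The libraries share groups and preparation, so these coefficients are descriptive.

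Hadha and Hadhb are read in opposite directions from neighbouring starts, which are 300 bases apart in RefSeq on GRCr8. The 250 bases upstream of the start of Hadha (chr6:31907551-31907800, forward strand, 5′ to 3′ along the gene) are shown because 200 of them, in capitals, are also the upstream sequence of Hadhb on the other strand.
Hadha: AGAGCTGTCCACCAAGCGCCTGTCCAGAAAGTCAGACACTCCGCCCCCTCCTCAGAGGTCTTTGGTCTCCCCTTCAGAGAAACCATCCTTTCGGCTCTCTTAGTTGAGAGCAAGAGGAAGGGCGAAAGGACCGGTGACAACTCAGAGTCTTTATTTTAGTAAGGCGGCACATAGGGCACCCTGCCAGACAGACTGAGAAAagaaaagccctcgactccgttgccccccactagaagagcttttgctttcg
None of the 3 motifs occurred upstream of Hadha, and the hexamer found for Hadhb lay 43 to 48 bases after its start.

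**Figure D2:**
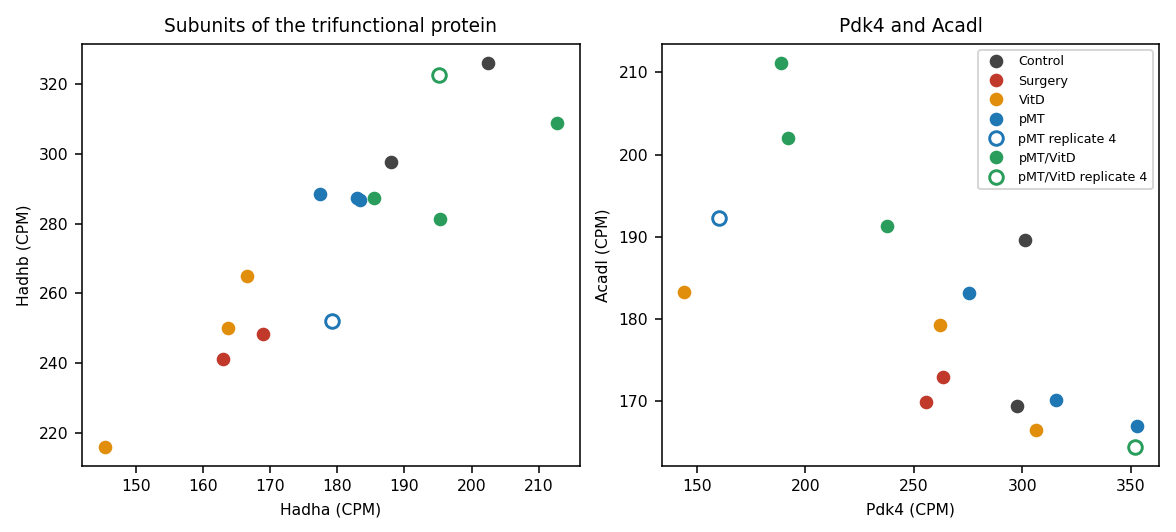
CPM of Hadhb against Hadha (left) and of Acadl against Pdk4 (right), one point per library, coloured by group, with open points for replicate 4 of pMT and of pMT/VitD; the axes do not start at 0. Hadha and Hadhb rise together (r = 0.91), and Acadl is high where Pdk4 is low (r = -0.70).

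Pdk4, the kinase that restrains pyruvate dehydrogenase, stood at 298 and 301 CPM in the Control libraries, 256 and 263 in Surgery, 144, 262 and 306 in VitD, 276, 316, 353 and 159.9 in pMT and 189, 192, 238 and 352 in pMT/VitD. The group ranges of VitD, pMT and pMT/VitD overlapped widely, and 4 libraries fell below 200 CPM, namely VitD replicate 1, pMT replicate 4 and pMT/VitD replicates 1 and 2. These were also the 4 libraries with the highest summed level of 9 adipocyte markers (389 to 532 CPM against 219 to 348 CPM in the other 11), whose part in the Pdk4 levels was not tested. Acadl and Pdk4 had the lowest correlation of the 45 pairs (r = -0.70, Spearman's rho = -0.78, -0.80 for deviations from group means, and -0.64 in the 13 libraries left without pMT/VitD replicates 1 and 2).

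Ucp3, the mitochondrial uncoupling protein homologue of skeletal muscle, stood at 270.4 and 263 CPM in the Control libraries, 202 and 206 in Surgery, 95.1, 202 and 246 in VitD, 299, 269, 239 and 295 in pMT and 253, 217, 369 and 188 in pMT/VitD. Both Surgery libraries lay below both Control and all pMT libraries, while VitD and pMT/VitD ranged from below to well above the Surgery level in single libraries. The 250 bases upstream of Ucp3 (RefSeq, GRCr8, chr1:164227660-164227909, forward strand, 5′ to 3′ along the gene) are shown for their 2 copies of the hexamer AGGTCA, in capitals, at 155 to 150 and 50 to 45 bases before the start.
Ucp3: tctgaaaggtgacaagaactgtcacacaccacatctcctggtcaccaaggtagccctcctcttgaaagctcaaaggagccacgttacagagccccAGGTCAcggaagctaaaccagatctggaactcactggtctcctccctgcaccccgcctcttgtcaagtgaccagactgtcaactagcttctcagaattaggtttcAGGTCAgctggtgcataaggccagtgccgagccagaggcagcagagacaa

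Surgery was compared with Control to see what the operation left behind in untreated muscle. All 10 genes had lower fitted levels after surgery, with a median log2 fold change of -0.20 against -0.01 over all genes tested. In 8 of the 10, every gene but Cd36 and Acadl, both Surgery libraries lay below both Control libraries in TMM-scaled CPM, which was so for 34.4% of all genes. None was called, against 1.55% of all genes, and 1 of the 10 had an unadjusted p below 0.05, against 17% of all genes. The 95% intervals of the log2 fold changes ran from -0.66 to 0.27 over the 7 enzymes (Cpt1b, Cpt2, the 3 dehydrogenases, Hadha and Hadhb) and from -1.16 to 0.63 for Pdk4 and Ucp3. DESeq2 called 0 of the 10 while calling 5.82% of all genes, limma voom with sample quality weights called 4 while calling 28.5% of all genes, and a fit to these 4 libraries alone called 5 while calling 32.4%. Without scaling factors, the median of all genes moved to 0.25 and that of the 10 genes to 0.07, so the 10 genes stayed lower than the table as a whole while the sign of their median changed. In deposited TPM, which were not TMM-scaled, only Hadhb and Ucp3 had a lower mean in Surgery than in Control. Acadm, for one, stood at 162 and 164 TPM in Surgery and 135 and 141 TPM in Control, so the separations depend on the scale.

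Summed levels of other marker lists moved with this comparison. The 9 macrophage markers summed to 299 and 317 CPM in Control and to 586 and 594 CPM in Surgery, with 2 of 9 called higher, and the 9 fast fibre genes summed to 134435 to 135928 CPM in Control and 107527 to 108227 CPM in Surgery, with 0 of 9 called. The 7 slow fibre genes (4754 to 4766 and 5677 to 5770 CPM, 0 called), the 9 adipocyte markers (219 to 225 and 336 to 339 CPM, 1 called higher) and the 9 endothelial markers (332 to 340 and 381 to 385 CPM, 0 called) were higher in Surgery in these sums, and the 8 general muscle fibre genes were lower (103017 to 118912 and 90660 to 94043 CPM, 0 called). In bulk tissue, fewer fibres and less transcript per fibre cannot be told apart, and the part of cell composition in the levels of the 10 genes was not tested.

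pMT was compared with Surgery to see whether the mitochondria changed these levels. All 10 genes had higher fitted levels in pMT, with a median log2 fold change of 0.19 against 0.02 over all genes, and 0.23 without both replicate 4 libraries. In 7 of the 10 (Cd36, Cpt2, Acadvl, Acadm, Hadha, Hadhb and Ucp3) every pMT library lay above both Surgery libraries, against 13.2% of all genes, and for Cpt1b and Pdk4 only pMT replicate 4 fell below the Surgery libraries. None was called, against 1.94% of all genes, and 1 had an unadjusted p below 0.05, against 14.3%. The 95% intervals ran from -0.22 to 0.50 on the log2 scale for the 7 enzymes. DESeq2 called 0 and limma voom 6, while calling 4.34% and 37.5% of all genes. With edgeR's exactTest on these 2 groups, the test the study used, none of the 10 reached a fold change of at least 2. The smallest unadjusted p of that test was 0.0088 (Ucp3, adjusted p = 0.0965). Cpt2, the gene below 0.05 in the reported fit, had an unadjusted p of 0.0548 by exactTest. The median of the 10 genes was 0.06 without scaling factors, where that of all genes was -0.12. Macrophage markers summed to 248 to 334 CPM in pMT, with 5 of 9 called lower, and fast fibre genes to 113765 to 129260 CPM, with 0 called.

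The comparisons with Control share its 2 libraries, as those with Surgery do, so they are given side by side and not correlated. Against Control, the 10 genes in pMT had a median log2 fold change of 0.02, 5 higher and 5 lower. Cd36 and Acadm lay above both Control libraries in all 4 pMT libraries, against 7.41% of all genes, and Hadha and Hadhb lay below them in all 4, against 7.77%. None was called, against 0% of all genes, and 0 had an unadjusted p below 0.05, against 3.07%. DESeq2 and limma voom also called 0 of the 10, while calling 0% and 1.32% of all genes. The 95% intervals ran from -0.43 to 0.43 on the log2 scale for the 7 enzymes.

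VitD alone was compared with Surgery. The median log2 fold change of the 10 genes was -0.01, 3 were higher and 7 lower, and the 2 groups' libraries overlapped for every one. Of all genes, 7.69% had every VitD library above both Surgery libraries and 8.16% had every VitD library below them. None of the 10 was called and none had an unadjusted p below 0.05, against 0% and 0.808% of all genes. DESeq2 and limma voom called 0 of the 10, while calling 0.00581% and 2.44% of all genes. The 95% intervals of the 7 enzymes ran from -0.36 to 0.33. Against Control, the median for VitD was -0.25, with 9 lower, and it was -0.17 without VitD replicate 1. In 5 of the 10 (Cpt1b, Cpt2, Hadha, Hadhb and Ucp3) all VitD libraries lay below both Control libraries, against 27.1% of all genes. None was called, against 8.67% of all genes, 4 had an unadjusted p below 0.05, against 25.8%, DESeq2 called 2 lower (Hadha and Hadhb) while calling 14.4% of all genes, and limma voom 5 while calling 37.4%. Macrophage markers summed to 502 to 788 CPM in VitD, with 6 of 9 called higher than in Control and 0 of 9 against Surgery.

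The combination pMT/VitD was compared with Surgery and, to see what the mitochondria added to VitD, with VitD alone. Against Surgery, 9 of the 10 genes had higher fitted levels, with a median log2 fold change of 0.19, and for Cpt1b, Cpt2, Hadha and Hadhb every pMT/VitD library lay above both Surgery libraries, 4 of 10 against 16.6% of all genes. None was called, against 7.44% of all genes, and 2 had an unadjusted p below 0.05, against 24.8%. DESeq2 called 2 (Hadha and Hadhb) while calling 12.9% of all genes, and limma voom 6 while calling 39.4%. Without both replicate 4 libraries, Acadm was called at a log2 fold change of 0.32 (adjusted p = 0.0420 in edgeR's quasi-likelihood test), when 20.1% of all genes were. The median of the 10 genes was -0.13 without scaling factors, where that of all genes was -0.32. All 9 macrophage markers were called lower in pMT/VitD than in Surgery (231 to 339 against 586 to 594 CPM in sum), 2 of 8 general fibre genes were called higher (111442 to 126189 against 90660 to 94043 CPM), and 1 of 9 endothelial and 1 of 9 adipocyte markers were called lower, with 0 of 9 fast fibre genes called. Their part in the levels of the 10 genes was not tested.

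Against VitD alone, Hadha was called higher in pMT/VitD, by 0.31 ± 0.0927 on the log2 scale (SE, 4 against 3 libraries), with an adjusted p of 0.0266 in edgeR's quasi-likelihood test with Benjamini-Hochberg adjustment over 17201 genes. This was 1 of the 10 genes, against 21.9% of all genes, so the share called in the set lay below that of the table, and it was the only call among the 10 in any comparison. At an unadjusted p below 0.05 there were 3, against 35.6%. All 4 pMT/VitD libraries (186 to 213 CPM) lay above all 3 VitD libraries (145 to 167 CPM) for Hadha, and the groups were likewise apart for Cpt1b, Cpt2 and Hadhb, 4 of 10 against 13% of all genes. Of the 10, 9 had higher fitted levels, with a median log2 fold change of 0.22 and 0.17 without VitD replicate 1, and the 95% intervals of the 7 enzymes ran from -0.11 to 0.54.

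The Hadha call was not stable. It was lost without pMT/VitD replicate 1 (adjusted p = 0.0521), pMT/VitD replicate 2 (0.0736), VitD replicate 1 (0.0824) or VitD replicate 2 (0.0595), each from edgeR's quasi-likelihood test, and the log2 fold change then lay between 0.26 and 0.34. Without scaling factors it was -0.026, when the median of all genes was -0.34 and that of the 10 genes -0.13. In deposited TPM, the mean of Hadha was 90.3 in pMT/VitD and 97.6 in VitD. The call was also lost without a filter on low counts, in a fit to the 2 groups alone and with the replicate number as a block. DESeq2 called Hadha with an adjusted p of 5.4e-05, together with Cpt2 and Hadhb, when it called 26.9% of all genes, and limma voom with one of 0.00051, together with 6 others, when it called 48.7%. Without both replicate 4 libraries, Hadha (0.31, adjusted p = 0.0193) and Acadm (0.33, adjusted p = 0.0151) were called by edgeR's quasi-likelihood test, when 32% of all genes were. Beside these values, all 9 macrophage markers were called lower in pMT/VitD (231 to 339 CPM against 502 to 788 CPM in VitD), 3 of 9 fast fibre genes (130240 to 151152 against 91051 to 113832 CPM) and 3 of 8 general fibre genes were called higher, and their part in the levels of Hadha was not tested.

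**Figure D3:**
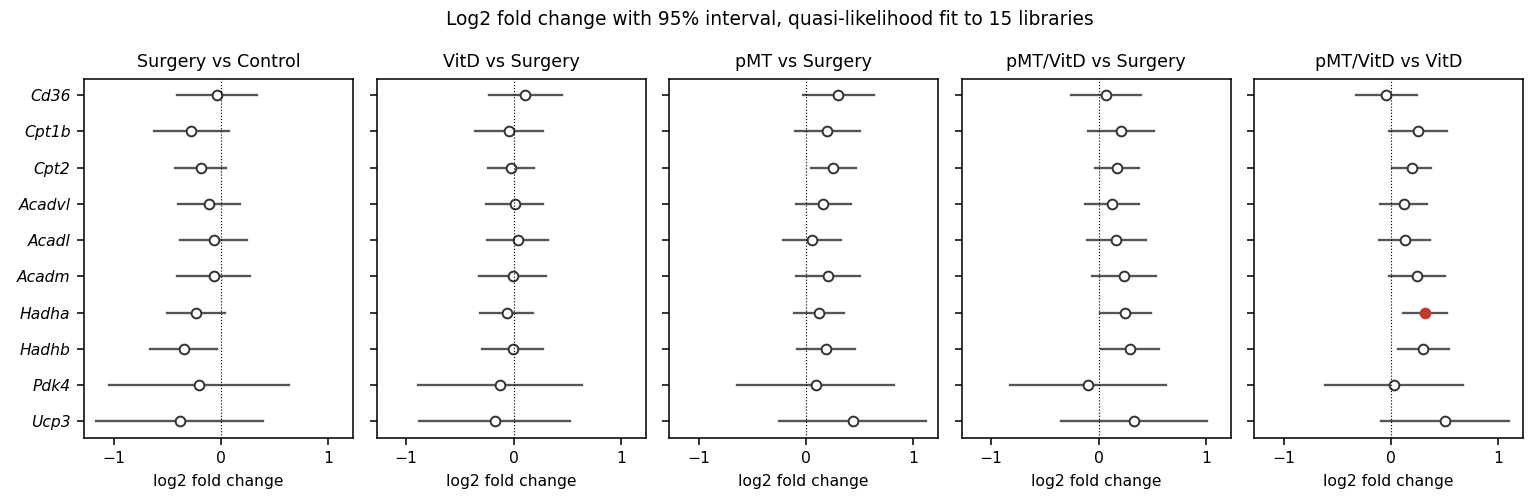
Log2 fold change (x axis) with its 95% interval for each gene (y axis) in 5 comparisons, from the quasi-likelihood fit to 15 libraries. The intervals use the residual degrees of freedom of 15 libraries in 5 groups, not those of the test. The filled red point is the only call, Hadha in pMT/VitD against VitD, and the intervals of Pdk4 and Ucp3 are the widest in each panel.

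pMT/VitD against pMT alone gave a median log2 fold change of -0.01, 5 genes higher and 5 lower. None was called and none had an unadjusted p below 0.05, against 0% and 10.1% of all genes, with 0 by DESeq2 and 3 by limma voom, which called 0.541% and 38.3%. Without both replicate 4 libraries the 10 genes still held 0 calls, while 18.3% of all genes were called. Hadha was the 1 gene of the 10 with every pMT/VitD library above every pMT library, against 2.46% of all genes. Against Control, the median for pMT/VitD was -0.001, none was called or had an unadjusted p below 0.05, against 0% and 2.88% of all genes, and DESeq2 called 0 and limma voom 2, when they called 0% and 10.6% of all genes. The interaction of pMT and VitD, the test of whether the effect of the combination departs from the sum of the 2 single effects, gave 0 calls and 0 unadjusted, against 0% and 5.16%, with intervals of -0.38 to 0.50 for the 7 enzymes (0 by DESeq2 and 2 by limma voom, which called 0% and 31.4% of all genes). Each single effect was taken against Surgery, which was not injected, so each included the injection. An interaction and the injection can therefore not be told apart in this test. Over any difference among the 5 groups, 0 of the 10 were called against 11.8% of all genes, 3 had an unadjusted p below 0.05 against 26.2%, and DESeq2 called 3 (Cpt2, Hadha and Hadhb) while calling 21.6%, and limma voom all 10 while calling 66.6%.

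Of the surrounding pathway, 73 genes in 10 lists were all tested. In Surgery against Control 1 was called, 0 in pMT against Surgery, 0 in VitD against Surgery, 7 in pMT/VitD against Surgery (3 higher and 4 lower), 12 in VitD against Control (5 higher and 7 lower) and 24 in pMT/VitD against VitD (16 higher and 8 lower, 32.9% of the 73), and 0 in each other pairwise comparison and in the interaction. Over all genes, the shares called were 1.55% in Surgery against Control, 7.44% in pMT/VitD against Surgery, 8.67% in VitD against Control and 21.9% in pMT/VitD against VitD. At an unadjusted p below 0.05, the comparisons with 0 calls held 18 of the 73 in pMT against Surgery (14.3% of all genes), 0 in VitD against Surgery (0.808%), 6 in pMT/VitD against pMT (10.1%), 3 in pMT against Control (3.07%), 4 in pMT/VitD against Control (2.88%) and 1 in the interaction (5.16%). These counts moved by more than 1.5 times with single libraries. The 24 calls were 14 without VitD replicate 1. The 12 in VitD against Control were 0 without Control replicate 1 or 2, 6 without Surgery replicate 1 or 2, 7 without pMT replicate 1 or 2, 4 without VitD replicate 1 and 2 without VitD replicate 2. The share of all genes called in VitD against Control fell too, to 0.0731% and 0.163% without Control replicate 1 and 2. It was 5.32% and 5.29% without Surgery replicate 1 and 2, and 6.76% and 6.12% without pMT replicate 1 and 2. The 7 in pMT/VitD against Surgery were 0 without Surgery replicate 1 or 2, 4 without Control replicate 1 or 2 or VitD replicate 2, 3 and 2 without pMT/VitD replicate 1 and 2, and 14 without pMT/VitD replicate 4 or VitD replicate 1. Of all genes, 0.727% and 0.687% were called in pMT/VitD against Surgery without Surgery replicate 1 and 2. The share was 5.11% and 5.09% without Control replicate 1 and 2, and 3.98% without pMT/VitD replicate 1. Surgery against Control ranged from 0 to 8 and pMT against Surgery from 0 to 7, both highest without VitD replicate 1. These 2 ranges are given without the share of all genes and so say nothing particular to the 73. Without both replicate 4 libraries, 22 of the 73 were called in pMT/VitD against Surgery and 17 in pMT/VitD against pMT, when 20.1% and 18.3% of all genes were.

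The 24 calls in pMT/VitD against VitD covered uptake and activation (2 higher and 4 lower of 9), the carnitine shuttle (1 and 1 of 4), other β-oxidation enzymes (3 and 0 of 10), malonyl-CoA control (2 and 0 of 3), the PDK and UCP families (1 and 2 of 6), peroxisomal oxidation (1 and 0 of 8), lipolysis (1 and 0 of 10), regulators (4 and 1 of 15), ketone use (1 and 0 of 5) and electron transfer (0 of 3, with Etfa and Etfb the most abundant). A separate list of 16 TCA cycle genes had 5 called higher in the same comparison, 31.2% of the list against 21.9% of all genes called in either direction.

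Close relatives of the 10 genes were among the calls. The pathway genes described below were named for the smallest p among those called, so separation of their libraries partly follows from that choice. The share of all genes with the same split of libraries was not computed. Cpt1a, the isoform of CPT1 common outside muscle, stood at 9.26 and 9.67 CPM in the Control libraries, 12.9 and 14.5 in Surgery, 15.8, 14 and 14.2 in VitD, 10.9, 11.1, 11.1 and 10.7 in pMT and 10.5, 9.58, 9.68 and 8.91 in pMT/VitD. Every Surgery and VitD library lay above every other library, and Cpt1a was called lower in pMT/VitD than in VitD (log2 fold change -0.60 ± 0.0889 SE, adjusted p = 0.00070 in edgeR's quasi-likelihood test). Ucp2, the uncoupling protein homologue of many non-muscle cells including macrophages, stood at 25.0 and 22.7 CPM in the Control libraries, 37.3 and 36.2 in Surgery, 43.2, 34.8 and 32.8 in VitD, 24.8, 23.8, 23.4 and 26.4 in pMT and 20.4, 17.4, 26.2 and 24.9 in pMT/VitD. The same order held, with every Surgery and VitD library above every other library and a log2 fold change of -0.73 ± 0.133 (SE, adjusted p = 0.0022, same test) in pMT/VitD against VitD.

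Pdk2, a pyruvate dehydrogenase kinase abundant in muscle, stood at 394 and 362 CPM in the Control libraries, 225 and 219 in Surgery, 127, 211 and 251 in VitD, 297, 307, 311 and 286 in pMT and 305, 322, 388 and 378 in pMT/VitD. All Surgery and VitD libraries lay below all others, and Pdk2 rose by 0.83 ± 0.180 on the log2 scale (SE, adjusted p = 0.0060, edgeR's quasi-likelihood test) in pMT/VitD against VitD, where the ranges of Pdk4 overlapped. Eci1, the mitochondrial enoyl-CoA isomerase for unsaturated chains, stood at 68.2 and 63.9 CPM in the Control libraries, 53.4 and 48.1 in Surgery, 41.2, 45.3 and 47.5 in VitD, 62.7, 60.9, 57.9 and 78.9 in pMT and 77.8, 80.0, 81.3 and 60.4 in pMT/VitD. All Surgery and VitD libraries again lay below all others, and Eci1 rose by 0.74 ± 0.128 (SE, adjusted p = 0.0017, same test) in that comparison. Among acyl-CoA synthetases, which activate fatty acids, Acsl4 and Acsl5 fell by 0.64 and 0.60 on the log2 scale and Acsl6 rose by 0.58 (adjusted p = 0.0035, 0.0072 and 0.0049 by edgeR's quasi-likelihood test).

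The calls of Cpt1a, Ucp2, Pdk2, Eci1, Acsl4 and Acsl5 in pMT/VitD against VitD were kept under all 25 alternative settings, and that of Acsl6 under 24, the exception being library size without scaling factors. Other calls picked by the same rule there ranged from 12 of the 25 settings (Acacb), 16 (Acad11) and 17 (Acat1) to 24 (Acaa1a, Esrra, Idh3g, Pnpla2 and Tfeb). The call of Hadha was kept under 17. In pMT/VitD against Surgery the 7 calls were Eci1, Acsl6, Pnpla2, Cpt1a, Ucp2, Pdk3 and Klf15, the last outside the naming rule and named after its value was seen (log2 fold change -0.83, adjusted p = 0.0470 in edgeR's quasi-likelihood test). With the replicate number as a block, Ucp2 alone of the 7 stayed called, and without scaling factors Eci1, Acsl6 and Pnpla2 lost the call. Cpt1a was the 1 call in Surgery against Control (0.53 ± 0.117 SE, adjusted p = 0.0394, same test). That call was lost without either Control replicate, either Surgery replicate, pMT replicate 1 or 2, or VitD replicate 2, with log2 fold changes of 0.45 to 0.62, and also under the replicate block, without a filter on low counts and with the gene length trend removed. Cpt1a, Ucp2, Acsl4 and Acsl5 were, like the summed macrophage markers, higher in every Surgery and VitD library than in every other library. Cpt1a and Ucp2 are also expressed in macrophages, and the part of these cells in the 4 levels was not tested.

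**Figure D4:**
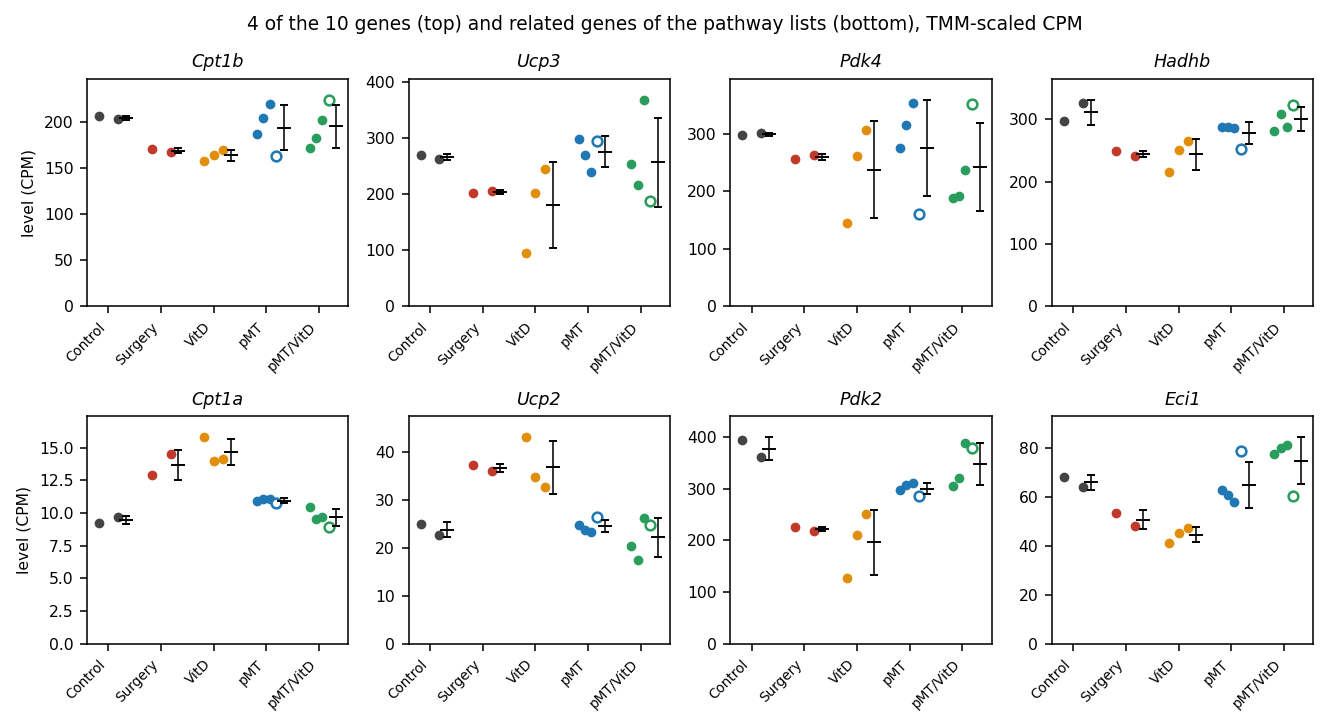
Levels (y axis, TMM-scaled CPM, from 0) of Cpt1b, Ucp3, Pdk4 and Hadhb (top) and of the related genes Cpt1a, Ucp2, Pdk2 and Eci1 (bottom) by group (x axis), with points as libraries, open points for replicate 4 of pMT and pMT/VitD, and bars for the mean ± SD. Cpt1a and Ucp2 are high in Surgery and VitD, where Pdk2 and Eci1 are low.

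By Pearson correlation of log2 CPM over the 15 libraries, the genes closest to the mean of the 10 were Ppp1r3c, a glycogen-targeting phosphatase subunit (r = 0.98, 478 CPM on average), Irf2bp2, a transcriptional corepressor (0.95), Tigar, a fructose-2,6-bisphosphatase (0.95), Ttc19, an assembly factor of respiratory complex III (0.95), and Kcna7, a voltage-gated potassium channel (0.95). Closest to Pdk4 were Plau, the urokinase-type plasminogen activator (0.98), Prkab2, the β2 subunit of AMPK (0.98), and Nt5c1a, a cytosolic nucleotidase (0.98). Closest to Ucp3 were Gadd45g, a stress-response gene (0.95), LOC102557156 (0.94, at 1.41 CPM) and Elf2, an ETS transcription factor (0.94). Closest to Cd36 were Naa15, a subunit of the N-terminal acetyltransferase (0.93), Map4k5, a protein kinase (0.91), and Bmpr2, a receptor for bone morphogenetic proteins (0.91). These coefficients describe 15 libraries that share groups, and the nearest among all genes tested is high by selection.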

How the data were processed

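Paired-end RNA-seq of multifidus was trimmed, aligned to rn6 with HISAT2 and quantified per RefSeq gene with StringTie by the authors, who deposited raw counts, FPKM and TPM for each library; per the submitters' processing notes the versions were Trimmomatic 0.38, HISAT2 2.1.0, SAMtools 1.9, StringTie 2.1.3b and edgeR 3.40.2. The deposited FPKM values and the authors' comparison columns, where given, were not used, and 0 columns stayed without a sample. From the deposited counts, edgeR 4.0.16 (R 4.3.3) was run with TMM scaling, filterByExpr by group, robust quasi-likelihood fits over all 15 libraries and Benjamini-Hochberg adjustment over 17201 genes, for 9 pairwise comparisons, the interaction of pMT and VitD, and any difference among the 5 groups. CPM are TMM-scaled, and correlations and SDs used log2 CPM with a prior count of 2. TPM were taken as deposited. The count test was checked on simulated data. Groups came from the sample titles.

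The 10 genes and the gene lists were chosen with earlier results of these data known. All 10 are named with levels, and fold changes only where called; from the 10 lipid lists and the TCA list at most 3 genes per list with the smallest p among those called are named (otherwise at most the 2 most abundant), and 5 or 3 genes by correlation. Alternatives were RLE scaling, no scaling, 2 filters, DESeq2 1.42.0, limma 3.58.1 (voom), fits to the compared groups only, a replicate block, removal of both replicate 4 libraries, removal of a gene length trend, and each library left out in turn. For pMT against Surgery, edgeR's exactTest on the 2 groups was also run, with a fold change of at least 2. Upstream sequences came from RefSeq (GRCr8), no coordinate was converted from rn6, and strandedness of counting is not given in the sources used here.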

Additional observations from a re-analysis of the deposited data

Results flagged for a closer look

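Hadhb in pMT replicate 4 stood apart from its group. It was at 252 CPM, whereas pMT replicates 1 to 3 lay between 287 and 289 CPM, so the gap took 0.952 of the group's range. Of the 20 sets of 4 libraries tested (10 genes in pMT and in pMT/VitD), this was the only such case, and about 1 is expected by chance.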

How the results depend on the processing

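Members called in pMT/VitD against VitD, 1 in the reported fit, were 2 with RLE scaling (22.3% of all genes called, against 21.9% in the reported fit), 0 without scaling factors (33.5%), 0 without a filter on low counts (13.1%), 3 with DESeq2 (26.9%), 7 with limma voom (48.7%), 0 in a fit to the groups compared (11.3%), 2 without both replicate 4 libraries (32%), 4 with the gene length trend removed (25.4%), and 0 to 2 with each library left out in turn. Elsewhere the count rose from 0. In Surgery against Control it was 4 with limma voom (28.5% of all genes) and 5 in a fit to the groups compared (32.4%). In pMT against Surgery it was 6 with limma voom (37.5%). In pMT/VitD against Surgery it was 2 with DESeq2 (12.9%), 6 with limma voom (39.4%), 1 without both replicate 4 libraries (20.1%) and 1 with the length trend removed (10.5%). In VitD against Control it was 2, 5 and 3 with DESeq2, limma voom and the length trend removed (14.4%, 37.4% and 13.8%), and among any of the 5 groups 3, 10 and 2 (21.6%, 66.6% and 16.1%). Limma voom also gave 3 in pMT/VitD against pMT (38.3%), 2 in pMT/VitD against Control (10.6%) and 2 for the interaction (31.4%). Hadha in pMT/VitD against VitD turned to -0.026 (adjusted p = 0.88, edgeR) without scaling factors, when the median of all genes was -0.34. The cause of these changes was not tested. Of 276 counts of members, 244 stayed within 1.5 times, and of 250 medians, 241 moved by less than the spread between replicates. The reported count was 0 in every test but pMT/VitD against VitD, so most of the 244 were counts of 0 that stayed at 0.

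With the replicate number as a block, 0 members were called in pMT/VitD against VitD (Hadha 0.32, adjusted p = 0.067, edgeR) and no other count of members changed. Among the 73 genes of the pathway, the block left 1 call of 7 in pMT/VitD against Surgery and 0 of 1 in Surgery against Control, when 2.03% and 0.616% of all genes were called. Other settings moved counts over the 73 genes by more than 1.5 times. In pMT/VitD against Surgery (7) they gave 17 with DESeq2 (12.9% of all genes), 40 with limma voom (39.4%), 11 without scaling factors (18.9%) and 14 with the length trend removed (10.5%). In pMT/VitD against VitD (24) they gave 48 with limma voom (48.7% of all genes) and 13 in a fit to the groups compared (11.3%). In VitD against Control (12) they gave 19 with DESeq2 (14.4%), 37 with limma voom (37.4%) and 0 in a fit to the groups compared (0.579%). In Surgery against Control (1) they gave 5, 31 and 36 with DESeq2, limma voom and a fit to the groups compared (5.82%, 28.5% and 32.4% of all genes). In pMT against Surgery (0) they gave 5, 42 and 3 in the same order (4.34%, 37.5% and 3.13%). Limma voom gave 33 in pMT/VitD against pMT (38.3%), 1 in pMT against Control (1.32%), 12 in pMT/VitD against Control (10.6%) and 22 for the interaction (31.4%), each 0 in the reported fit. Deviations from group means correlated above 0.1 in 7 of 24 same-numbered pairs, from -0.90 to 0.40. The lowest was between pMT replicate 4 and pMT/VitD replicate 4, and the highest between VitD replicate 1 and pMT/VitD replicate 1. In groups of 2 libraries the deviations mirror each other, so both pairs of Control with Surgery gave the same 0.38 by arithmetic. Deviations within a group sum to 0, so the pairs are not separate observations. Libraries with unlike numbers were not compared, so these values cannot decide whether the numbers pair the samples.

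Groups held 2 to 4 libraries, and each of the 10 genes had at least 2368 counts in every library. What set the precision of the fold changes was not tested.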
